A study of Rattus norvegicus with 31 samples.

Results

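Gfap and the other genes that mark astrocytes were followed here in samples of motor neurons after spinal cord injury. The members were Gfap, Vim, Nes, Aqp4, S100b, Slc1a2, Slc1a3, Glul and Gja1, and every probe set that carries the symbol of 1 of these genes, and no other symbol, in the platform annotation was taken. These were 10 probe sets of 8 of the 9 genes, out of 12913 probe sets tested and 9769 genes named by probe sets of a single symbol. Glul, which encodes glutamine synthetase, has no such probe set in the values used and is not analysed here.

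The samples were motor neurons of the tail in adult male Wistar rats, labelled in the living animal with the retrograde tracer Fluoro-Gold and cut from sections of the sacral cord by laser. Control animals (n = 4) were uninjured, and the injured animals had a complete transection at S2 and were taken 2 days (Spi-2, n = 6), 7 days (Spi-7, n = 5), 21 days (Spi-21, n = 8) or 60 days (Spi-60, n = 8) later. Each of the 31 arrays stands for 1 animal, and its RNA passed through 2 rounds of linear amplification before hybridization to Affymetrix Rat Genome arrays. The study's methods state that the late samples (Spi-21 and Spi-60) came from an earlier study and the remaining groups from the present one, so a late change and the study of origin cannot be told apart, and the labels name no sham operation for the uninjured animals.

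Astrocytes are the glial cells whose fine processes surround synapses and neuronal cell bodies. In their homeostatic state they take up glutamate through the transporters GLAST (Slc1a3) and GLT-1 (Slc1a2), pass ions and metabolites between each other through connexin 43 channels (Gja1), move water through aquaporin-4 (Aqp4) and contain the calcium-binding protein S100B. After injury they become reactive, a state classically recognised by more of the intermediate filament proteins GFAP and vimentin, and in some settings nestin, the filament protein of neural progenitors encoded by Nes. A laser cut around a motor neuron can take along the processes that touch it. In such bulk samples fewer cells of a type and less RNA per cell cannot be told apart.

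The labelled cell type was checked against its own genes. Of 11 motor neuron markers 9 were measured, and their mean lay between 10.7 and 11.5 (log2 scale) on every array, although Chat and Mnx1, which belong to the defining markers, were not among the measured ones. Single markers did change. Of their 12 probe sets 2, 1, 2 and 3 were called against Control at days 2, 7, 21 and 60 (adjusted p under 0.05 in limma). These are 16.7%, 8.33%, 16.7% and 25%, beside 8.87%, 2.59%, 16.6% and 17.1% of all probe sets. Prph was called higher at all 4 days and Ret at day 60, while Slc5a7 was called lower at days 2, 21 and 60. The astrocyte genes were also clearly present. The probe sets 1368353_at (Gfap), 1367574_at (Vim), 1386903_at (S100b), 1368565_at (Slc1a3) and 1372002_at (Gja1) had means over the 31 arrays above 6.10, the highest median of any array, and are called bright below. The other 5 probe sets, those of Nes, Aqp4 and Slc1a2 and a further one each for Slc1a3 and Gja1, had lower means and are called dim. Some libraries stood apart. Spi-21 replicates 1 to 3 and Spi-7 replicate 5 had the narrowest spread of values of all arrays (interquartile range 1.74 to 1.79), and Spi-2 replicate 4 carried high levels of fibroblast genes, as given with Vim. Apart from correlations, values without them are given where leaving them out changed a call or a value below.

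The promoters of Gfap, of Vim and of Gja1, the member with a match to the AP-1 type motif, are printed to show which sequences lie before the filament genes and a homeostatic gene. They are the 250 bases before the gene start in RefSeq on GRCr8, at chr10:88361662-88361911 (minus strand), chr17:81577011-81577260 (plus strand) and chr20:36302314-36302563 (plus strand), 5′ to 3′ on the gene's strand, with motif matches in capitals.
Gfap: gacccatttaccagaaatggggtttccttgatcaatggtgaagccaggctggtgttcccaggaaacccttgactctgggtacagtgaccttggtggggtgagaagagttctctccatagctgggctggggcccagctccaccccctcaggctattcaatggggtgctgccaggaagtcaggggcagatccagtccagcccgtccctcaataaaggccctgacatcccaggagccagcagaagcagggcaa
Vim: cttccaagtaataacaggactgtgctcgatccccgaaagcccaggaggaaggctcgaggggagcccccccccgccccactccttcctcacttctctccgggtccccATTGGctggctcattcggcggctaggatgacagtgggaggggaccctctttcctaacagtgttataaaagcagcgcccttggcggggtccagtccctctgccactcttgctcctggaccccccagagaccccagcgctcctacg
Gja1: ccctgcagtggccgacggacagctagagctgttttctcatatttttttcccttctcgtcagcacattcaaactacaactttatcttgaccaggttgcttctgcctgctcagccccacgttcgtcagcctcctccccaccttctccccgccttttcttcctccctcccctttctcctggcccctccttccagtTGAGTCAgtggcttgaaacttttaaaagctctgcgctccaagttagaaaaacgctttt
The motifs sought, on both strands and in the window from 250 bases before to 50 bases after the start, were TTCNNNGAA (the STAT type, present in 8.87% of all 33469 rat promoters of this length), TGANTCA (the AP-1 type, 7.33%) and CCAAT (37.5%). None of them occurs in the Gfap window. The Vim window holds CCAAT once, on the opposite strand and 144 bases before the start. Gja1 holds TGANTCA 58 bases before the start and a reverse CCAAT 24 bases after it, which lies outside the printed stretch, and the S100b window holds CCAAT, on either strand, at 3 places (246, 135 and 38 bases before the start). CCAAT also occurs in an Aqp4 window and in both Glul windows. Over all members 6 of 14 windows hold CCAAT, 1 holds TGANTCA and none holds TTCNNNGAA. A match describes the letters only.

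Gfap was the member with the highest change. In the Control animals its log2 values were 9.13, 8.77, 9.52 and 8.06. In Spi-2 the 6 animals lay between 11.17 and 11.56 with a median of 11.23. Thus every animal of day 2 stood above every uninjured animal, with an SD of 0.17 (n = 6) against 0.62 (n = 4). The mean difference was 2.45 ± 0.42 (SE) on the log2 scale, or 5.45-fold, with an adjusted p of 0.000461 in limma. Gfap was the 1 member probe set of 10 that was called at day 2, where 8.87% of all probe sets tested were called (adjusted p under 0.05 by limma with Benjamini-Hochberg adjustment over all of them, the rule for each contrast below).

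At day 7 the Gfap values were 10.38, 9.92, 9.31, 10.56 and 10.86. Of these 5 animals 4 lay above all controls, and replicate 3 lay within their range. The difference from Control of 1.33 ± 0.43 did not pass the test over all 31 arrays (adjusted p = 0.0967), and none of the 10 member probe sets did at this day, against 2.59% of all probe sets. The call depended on which arrays shared the estimate of the spread: the adjusted p was 0.0451 with the Control and Spi-7 arrays alone and 0.0327 without Spi-21 replicate 8. It was 0.262 without Control replicate 4 (1.07 ± 0.46) and 0.408 with the 3′ to 5′ difference of Gapdh, a sign of RNA integrity, as a covariate (0.85 ± 0.45). From day 2 to day 7 Gfap differed by -1.11 ± 0.39 (limma, adjusted p = 0.999, before adjustment 0.00782). In that comparison no member was called and 0% of all probe sets were, with 3 of the 10 member probe sets at an unadjusted p under 0.05.

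At the late time points Gfap was again above Control. The Spi-21 animals spread from 8.17 to 11.47 around a median of 10.31, and 7 of 8 lay above all controls. The Spi-60 animals ranged from 9.83 to 11.89 with a median of 10.77, and all 8 lay above them. Gfap rose by 1.34 ± 0.40 at day 21 (adjusted p = 0.02002) and by 1.83 ± 0.40 at day 60, or 3.54-fold (adjusted p = 0.00211). Day 60 and day 21, whose arrays come from the same study, differed by 0.49 ± 0.32 (adjusted p = 0.576). There 0.0697% of all probe sets were called and none of the members, of which S100b alone had an unadjusted p under 0.05.

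The late Gfap calls were less firm than that of day 2. The day 21 call was lost without Spi-21 replicates 1 to 3 (1.14 ± 0.44, adjusted p = 0.121), with the Control and Spi-21 arrays alone (adjusted p = 0.0719), and without Control replicate 2 or replicate 4 (adjusted p = 0.0599 and 0.0943). The day 60 call was lost when the 3′ to 5′ difference of Gapdh entered as a covariate (1.10 ± 0.48, adjusted p = 0.213). The 4 controls had a mean difference of 2.01 ± 0.33 (SD). It was 2.82 ± 0.36 for the 6 Spi-2 arrays, 3.01 ± 0.37 for the 5 Spi-7 arrays, 2.29 ± 0.94 for the 8 Spi-21 arrays and 3.49 ± 0.35 for the 8 Spi-60 arrays. Every injured group had a higher mean than Control, but the Spi-21 arrays were split. Their replicates 1 to 4 had 2.76 to 3.54, and replicates 5 to 8 had 1.13 to 1.66, below every control (1.80 to 2.50). Gfap was 10.21 to 11.47 in the former and 8.17 to 10.67 in the latter, and a link to this split was not tested. With the 3′ to 5′ difference as a covariate the day 2 difference of 2.05 ± 0.42 was still called (adjusted p = 0.00391), as was the 1.20 ± 0.37 of day 21 (adjusted p = 0.0282). Over the 15 arrays of the present study (Control with days 2 and 7) the F-test called Gfap at the study's threshold of 0.02 (adjusted p = 0.000562), the 1 member of 10, against 3.01% of all probe sets.

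**Figure D1:**
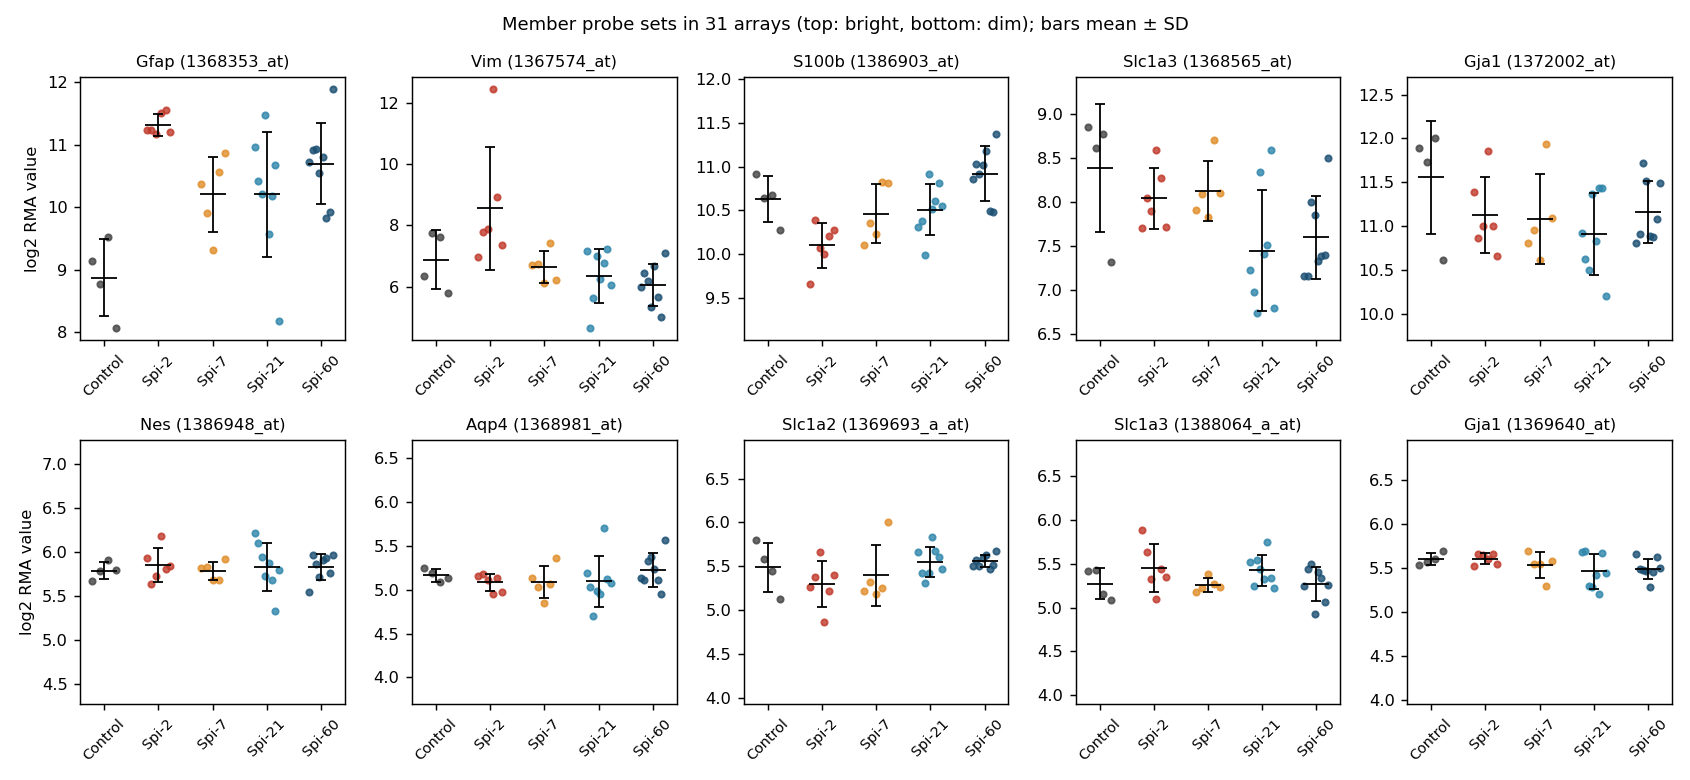
Log2 RMA values (vertical axes, each spanning at least 3 log2 units) of the 10 member probe sets in the 5 groups (horizontal axes); each point is 1 animal and the bars give the mean ± SD. Gfap lies above all controls in every Spi-2 and Spi-60 animal, Vim has 1 animal of Spi-2 at 12.44, and the 5 dim probe sets of the bottom row stay between 4.70 and 6.22.

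Vim encodes vimentin, the filament protein that accompanies GFAP in reactive astrocytes but is also made by fibroblasts, endothelial cells and microglia. The Control values were 6.34, 7.76, 7.62 and 5.82. In Spi-2 the 6 animals had 6.99, 7.79, 7.90, 12.44, 8.91 and 7.35. Here 4 of 6 stood above all controls, and replicate 4 stood far above the other 5. The difference of 1.68 ± 0.67 was not called (adjusted p = 0.115), and without replicate 4 it came to 0.90 ± 0.47 (adjusted p = 0.272).

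Replicate 4 of Spi-2 differed from the other 30 arrays in the genes of fibroblasts and meninges. All 5 of these markers were measured, and their mean in that library was 10.30, while it was 4.97 to 6.27 in the 30 other libraries. Col3a1, a fibrillar collagen, reached 11.85 there and 4.50 to 5.86 elsewhere, Col1a2 11.55 and 4.86 to 7.55, and the proteoglycans Dcn and Lum 10.80 and 10.00 against at most 6.20 and 5.92. Gfap in the same library was 11.51, within the range of the other Spi-2 animals, and its day 2 change was 2.41 ± 0.44 (adjusted p = 0.001001) without it. The part of these fibroblast genes in the Vim value was not tested.

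**Figure D2:**
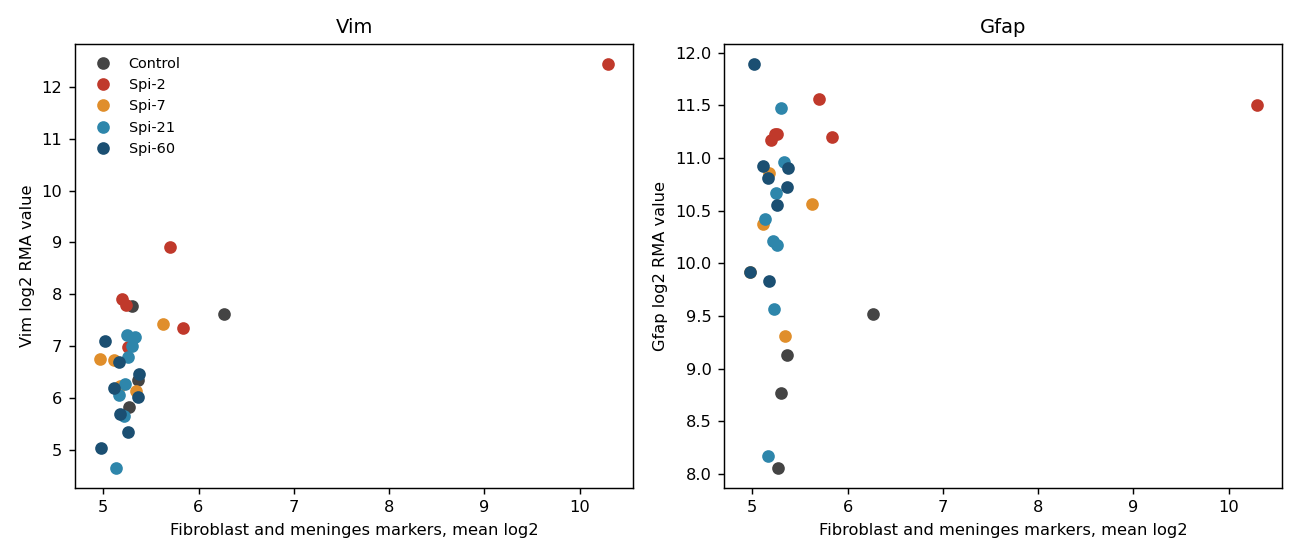
Vim (left) and Gfap (right) log2 values of each animal on the vertical axes against the mean log2 value of the 5 fibroblast and meninges markers on the horizontal axes, coloured by group. Spi-2 replicate 4 lies alone at a marker mean of 10.30, with Vim at 12.44 and Gfap at 11.51.

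After day 2 Vim did not stay with Gfap. The Spi-7 values were 6.72, 6.74, 6.13, 7.43 and 6.22, all within the range of the controls. The Spi-21 animals ran from 4.65 to 7.22 (median 6.52) and those of Spi-60 from 5.03 to 7.10 (median 6.10), with 2 and 3 animals below all controls and none above. The differences from Control were -0.24 ± 0.69, -0.54 ± 0.63 and -0.82 ± 0.63 at days 7, 21 and 60, none of them called (adjusted p = 0.918, 0.597 and 0.401). The contrast of late (mean of Spi-21 and Spi-60) minus early (mean of Spi-2 and Spi-7) did pass, at -1.40 ± 0.41 (adjusted p = 0.0133), and again without Spi-2 replicate 4, at -1.01 ± 0.28 (adjusted p = 0.0127). For Gfap the same contrast was -0.31 ± 0.25 (adjusted p = 0.387).

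S100b, the gene of the calcium-binding protein S100B, differed between the mean of the early and the mean of the late time points. Uninjured animals had 10.91, 10.64, 10.68 and 10.28. The Spi-2 animals lay between 9.66 and 10.39 (median 10.14), 5 of 6 of them below all controls, and the Spi-60 animals between 10.49 and 11.38 (median 10.97), 5 of 8 of them above. Neither difference from Control passed, -0.52 ± 0.18 at day 2 (adjusted p = 0.0685, and 0.0485 without Spi-21 replicates 1 to 3) and 0.29 ± 0.17 at day 60 (adjusted p = 0.259). The late minus early contrast did, at 0.43 ± 0.11 (adjusted p = 0.00617). Days 7 and 21, between these ends, had close means of 10.46 and 10.51. Their differences from Control were -0.16 ± 0.19 and -0.12 ± 0.17 (limma, adjusted p = 0.742 and 0.683). Day 60 minus day 21, with arrays of the same study, gave 0.41 ± 0.14 for S100b, which did not pass over all probe sets (limma, adjusted p = 0.211, before adjustment 0.00692).

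Slc1a3 encodes GLAST, a glutamate transporter of astrocytes and radial glia. Its bright probe set gave 8.85, 8.62, 8.78 and 7.31 in Control. In Spi-21 it lay between 6.74 and 8.59 (median 7.31) and in Spi-60 between 7.16 and 8.50 (median 7.39). Of these animals 4 of 8 and 2 of 8 stood below the lowest control, which was 1.31 log2 units from the next. The change was -0.94 ± 0.31 at day 21 (adjusted p = 0.0338), or 1.92-fold lower, and -0.79 ± 0.31 at day 60, which was not called (adjusted p = 0.0729). At days 2 and 7 it was -0.35 ± 0.32 and -0.26 ± 0.34 (adjusted p = 0.579 and 0.780), and late minus early was -0.56 ± 0.20 (adjusted p = 0.0378). The latter call was lost without Spi-2 replicate 4 (-0.51 ± 0.20, adjusted p = 0.0701) and without Spi-21 replicates 1 to 3 (-0.42 ± 0.20, adjusted p = 0.152). The day 21 call was lost in 10 of 39 alternatives, among them without Spi-21 replicates 1 to 3 (-0.66 ± 0.33, adjusted p = 0.231), with which the call in the mean of days 21 and 60 also went (-0.73 ± 0.28, adjusted p = 0.0756). Other alternatives gained the day 60 call. It passed without Control replicate 4, the lowest control (-1.15 ± 0.31, adjusted p = 0.0131), and with array weights (-0.85 ± 0.26, adjusted p = 0.0144). It also passed without Spi-21 replicate 7 (adjusted p = 0.0482) and without Spi-60 replicate 8 (adjusted p = 0.0333). The dim probe set of the same gene differed by 0.15 ± 0.12 at day 21 and was not called (adjusted p = 0.413).

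Gja1 encodes connexin 43, the main gap junction protein of astrocytes. The bright probe set had 11.889, 11.730, 11.999 and 10.608 in Control. In the injured groups the medians were 11.0002, 10.955, 10.872 and 10.995 at days 2, 7, 21 and 60, within a range of 10.20 to 11.94. All 4 differences from Control were negative, -0.43 ± 0.28, -0.48 ± 0.29, -0.64 ± 0.27 and -0.40 ± 0.27, and none was called (adjusted p from 0.0913 to 0.455). Without Control replicate 4, the lowest control, the day 21 difference was -0.96 ± 0.27 and passed (adjusted p = 0.0184). With array weights the differences were -0.71 ± 0.25, -0.70 ± 0.24 and -0.77 ± 0.26 at days 2, 7 and 21, and all 3 passed (adjusted p = 0.0433, 0.0496 and 0.0349).

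The dim probe sets gave no called change from Control at any day. Their values lay between 4.70 and 6.22 on every array, and the 20 differences from Control were between -0.19 and 0.18 with SEs of 0.09 to 0.15 (adjusted p from 0.323 to 0.995). They include the only probe sets for nestin (Nes), for aquaporin-4 (Aqp4) and for GLT-1 (Slc1a2), the main glutamate transporter of mature astrocytes. Nes, which is a reactive gene and not a homeostatic one, had group means of 5.79, 5.86, 5.79, 5.84 and 5.83 from Control to Spi-60, and Slc1a2 had 5.487, 5.297, 5.398, 5.550 and 5.560. For Aqp4 they were 5.16, 5.09, 5.09, 5.09 and 5.23. In late minus early, Slc1a2 was not called over all arrays but was without Spi-7 replicate 5, its highest value in that group (0.28 ± 0.08, adjusted p = 0.00711), without Spi-2 replicate 3 (0.24 ± 0.09, adjusted p = 0.0422) and with array weights (0.25 ± 0.07, adjusted p = 0.00712). As these probe sets lay under the median of the arrays, a change of the transcript may not show in them.

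**Figure D3:**
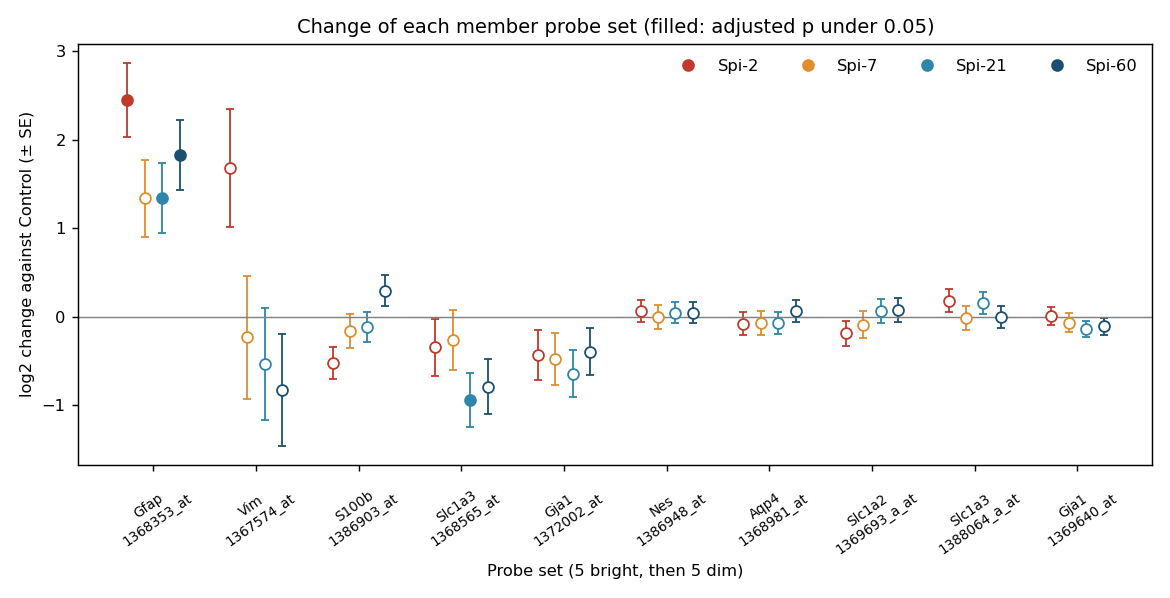
Difference from Control on the log2 scale (vertical axis, ± SE of the limma fit over 31 arrays) for each member probe set (horizontal axis) at the 4 time points, coloured by group; filled points passed an adjusted p of 0.05. Gfap at days 2, 21 and 60 and the bright Slc1a3 probe set at day 21 are filled, and the dim probe sets lie near 0.

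Counted over the members, the F-test over the 5 groups called 3 of 10 probe sets, Gfap (adjusted p = 0.00136), S100b (adjusted p = 0.00400) and Vim (adjusted p = 0.0110), where 16.2% of all probe sets were called. At day 21 the count was 2 of 10, with Gfap higher and Slc1a3 lower, against 16.6%, and at day 60 it was 1 of 10 against 17.1%. The mean of days 2 and 7 against Control called 1 of 10 (Gfap, 1.89 ± 0.38, adjusted p = 0.00164) against 8.48%, and the mean of days 21 and 60 called 2 of 10 (Gfap, 1.58 ± 0.36, adjusted p = 0.00276, and Slc1a3, -0.87 ± 0.28, adjusted p = 0.0266) against 20.5%. Late minus early called 3 of 10, with S100b higher and Vim and Slc1a3 lower, against 23.3%. With so few probe sets these shares are no result about the members as a group. The median change over the 10 probe sets was -0.04, -0.08, -0.09 and 0.02 at the 4 days, beside medians over all probe sets of 0.00, 0.00, 0.01 and 0.00.

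To set the reactive genes against the homeostatic ones within each animal, every gene was centred on its Control mean, and the mean of Aqp4, S100b, Slc1a2, Slc1a3 and Gja1 was taken from the mean of Gfap and Vim. The difference was -0.44, 0.28, 0.54 and -0.38 in the controls. It was 1.64, 1.90, 1.95, 4.28, 2.64 and 1.84 in Spi-2 and 1.08, 0.75, 0.35, 1.00 and 0.63 in Spi-7. All 6 animals of day 2 and 4 of 5 of day 7 thus exceeded every control. In Spi-21 it ran from -0.13 to 1.57 (median 0.75) and in Spi-60 from -0.04 to 1.34 (median 0.74), with 5 of 8 animals above all controls in each.

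The group means were 2.38 ± 0.99 (SD, n = 6; 1.99 ± 0.38 without replicate 4, n = 5), 0.76 ± 0.29 (n = 5), 0.74 ± 0.58 (n = 8) and 0.65 ± 0.52 (n = 8) at days 2, 7, 21 and 60. No test was made of this score over chosen genes. At day 2 the mean of Gfap and Vim was 2.06 ± 1.07 above Control, whereas that of the homeostatic genes was -0.31 ± 0.09, below 0 in all 6 animals but within the range of the controls. At days 7, 21 and 60 the mean of Gfap and Vim was 0.55 ± 0.46, 0.40 ± 0.77 and 0.50 ± 0.64, and that of the homeostatic genes -0.21 ± 0.27, -0.34 ± 0.31 and -0.15 ± 0.24. At day 21 both means were of similar size, and 3 of 8 animals had homeostatic means below all controls. Both average unlike changes at that day. The first holds Gfap at 1.34 and Vim at -0.54. The second holds S100b (-0.12), Slc1a3 (-0.94) and Gja1 (-0.64) together with the dim Aqp4 (-0.07) and Slc1a2 (0.06). With Gfap alone in place of the pair, the difference was 2.76 ± 0.13 at day 2 and 1.55 ± 0.42, 1.68 ± 0.89 and 1.98 ± 0.48 later, and 25 of the 27 injured animals had more than 1 log2 unit.

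**Figure D4:**
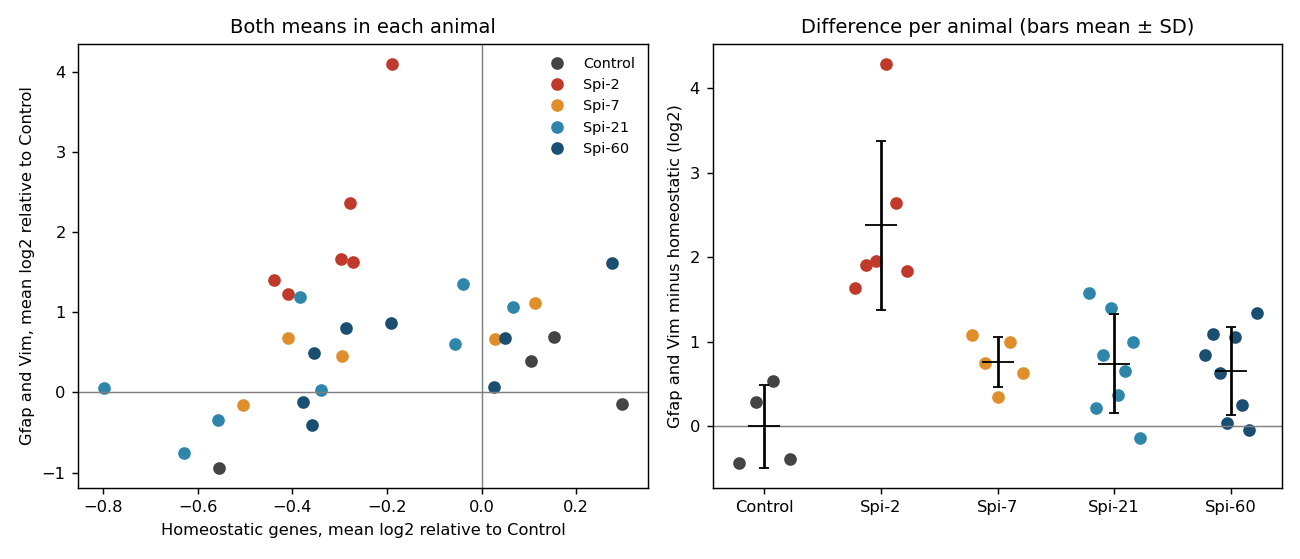
Left, mean of Gfap and Vim (vertical axis) against the mean of the 5 measured homeostatic genes (horizontal axis) in each animal, both in log2 units relative to the Control mean; right, their difference per animal by group with mean ± SD. The Spi-2 animals lie at 1.64 to 4.28 and the controls at -0.44 to 0.54.

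The bright members also varied together among animals of 1 group. Control replicate 4 had the lowest value of the 4 controls for each of the 5 bright probe sets, and Spi-60 replicate 8 the highest of its group for Gfap, Vim, S100b and Slc1a3. Over the deviations of the 31 arrays from their group means, all 10 pairs of bright probe sets correlated positively, with Pearson's r from 0.305 to 0.845. The closest pair was Slc1a3 and Gja1 (r = 0.845, Spearman's rho = 0.849). Both p were 1e-05, the smallest that 100000 permutations within groups can give, and both were 0.0001 after Benjamini-Hochberg adjustment over the 10 pairs. Without the 2 arrays farthest from the median of Slc1a3 r was 0.818, and it was 0.873 in the 15 arrays of the present study and 0.860 in the 16 of the earlier one.

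By Pearson's r the reactive pair itself was less tight, though its rho was near those of Gfap with Slc1a3 and Gja1. Gfap and Vim had r = 0.371 (adjusted p = 0.0102 by the permutation test) and rho = 0.543 (adjusted p = 0.00416), with r = 0.414 without the 2 arrays farthest in Gfap, 0.345 in the 15 arrays of Control and days 2 and 7, and 0.509 in the 16 late ones. Gfap went with Slc1a3 (r = 0.612, rho = 0.538, adjusted p = 0.00323 and 0.00595 by the permutation test) and Gja1 (r = 0.587, rho = 0.556, adjusted p = 0.00205 and 0.00503), and these r were 0.534 and 0.502 without the 2 farthest arrays. Vim and S100b had the lowest r, 0.305 (adjusted p = 0.0941 by the permutation test), and rho = 0.394 (adjusted p = 0.0331), with r = 0.087 in the 15 arrays of Control and days 2 and 7 and 0.657 in the 16 late ones. Spi-2 replicate 4, with Vim at 12.44, was among those 15 arrays and not among the 2 farthest in Gfap. No r was computed without that array alone, so its weight in the r of Vim is not known. The values of a pair come from the same library, so that the amount of tissue around the neurons and the amplification are shared between them.

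**Figure D5:**
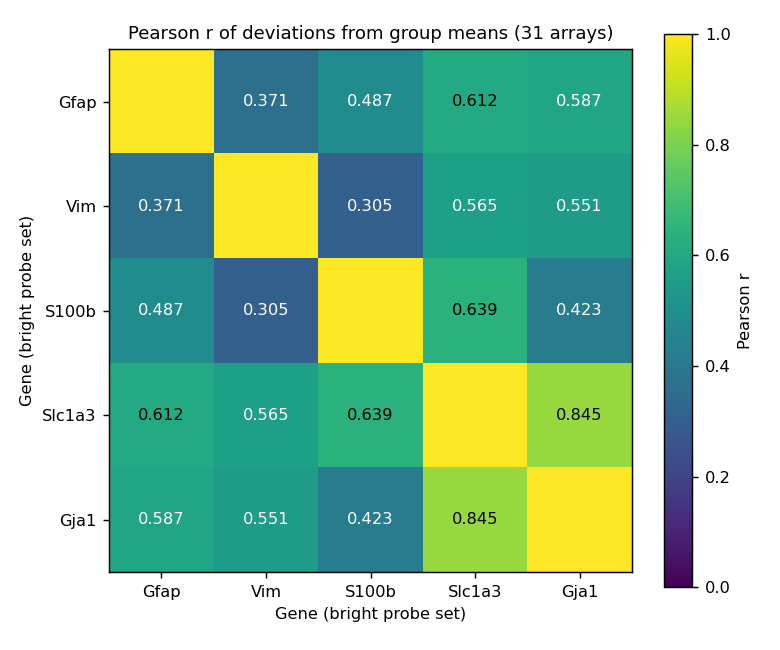
Pearson's r between the deviations from the group means of the 5 bright probe sets (both axes) over 31 arrays; the colour bar gives r and the diagonal is 1 by construction. Slc1a3 and Gja1 stand at 0.845 and Vim and S100b at 0.305.

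The genes whose pattern over all 31 arrays was most like a member are given as a description. For Gfap these were Abi3 (r = 0.852), Plod3 (0.783), Col5a3 (0.781), Arhgdib (0.765) and Irf5 (0.748). For Vim they were Ctsc (r = 0.895), Cp (0.877), Ifitm1 (0.872), Myl12a (0.869) and Fbn1 (0.861). The r with Vim include Spi-2 replicate 4, where Vim was 12.44 against at most 8.91 on the other 30 arrays. They were not computed without it, so that 1 array may weigh heavily in them. For Slc1a2, a dim probe set, r was lower, at 0.721 for Srarp, 0.717 for Rbp2, 0.705 for Gmeb2, 0.696 for Cbarp and 0.693 for Gpr135. None of the 15 is another member.

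Among other genes of astrocytes, a list of 34 with 26 measured by 31 probe sets, calls against Control at the 4 days were all downward. They numbered 4, 1, 3 and 2 of 31 at days 2, 7, 21 and 60 (12.9%, 3.23%, 9.68% and 6.45%), with none higher. Of all probe sets 8.87%, 2.59%, 16.6% and 17.1% were called. Lower calls were also the larger part of those at each day (643 of 1146, 216 of 334, 1381 of 2148 and 1277 of 2207). The median change of the list was -0.20, -0.20, -0.07 and 0.00, beside the medians of all probe sets given above. Aldoc, a glycolytic aldolase enriched in astrocytes, fell by 0.91 on the log2 scale at day 2 (SE 0.18, adjusted p = 0.00182) and by 0.82 at day 7 (SE 0.19, adjusted p = 0.0133), and was close to Control at day 60 (0.10 ± 0.17, adjusted p = 0.750). Apoe, the main lipid carrier of the brain, fell by 1.42 at day 2 (SE 0.38, adjusted p = 0.0157), and the difference at day 7 was -1.25 ± 0.39 (adjusted p = 0.0848).

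These genes did not share 1 course. Id4, an inhibitor of basic helix-loop-helix factors, fell at days 2, 21 and 60 (-0.61 ± 0.17, -0.83 ± 0.16 and -0.81 ± 0.16, adjusted p = 0.0238, 0.00133 and 0.00119) by 1 of its probe sets, while its other probe set had no call against Control and went the opposite way in late minus early (0.22 ± 0.08 against -0.32 ± 0.11, adjusted p = 0.0392 and 0.0264). Mt3, a metallothionein of the brain, had -0.41 ± 0.15 and -0.48 ± 0.16 at days 2 and 7 without a call (adjusted p = 0.0889 and 0.102). Late minus early was positive for Aldoc (0.80 ± 0.11, adjusted p = 1.73e-05), Apoe (1.55 ± 0.23, adjusted p = 3.83e-05) and Mt3 (0.53 ± 0.09, adjusted p = 0.000274), and over the list 8 probe sets were higher and 3 lower in it. S100b, among the members, had the same sign in this contrast.

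Genes known to rise in reactive glia, a list of 40 with 30 measured by 41 probe sets, had no lower call against Control at any of the 4 days, and in the mean of days 21 and 60 they had 7 higher calls and 1 lower (Cntf, the ciliary neurotrophic factor). The counts were 6, 1, 6 and 5 of 41 at days 2, 7, 21 and 60, or 14.6%, 2.44%, 14.6% and 12.2%, where 8.87%, 2.59%, 16.6% and 17.1% of all probe sets were called, so that the share exceeded the background at day 2 alone. The medians were 0.30, 0.17, 0.16 and 0.12. Without Spi-2 replicate 4 the day 60 count was 9, and with the 3′ covariate the day 2 and day 60 counts were 3 and 0. The share of all probe sets called under those settings is not given here, so these counts are not set against a background. S100a10, a partner of annexin A2, rose at each day, by 0.63 ± 0.12, 0.50 ± 0.12, 0.33 ± 0.11 and 0.35 ± 0.11 (adjusted p = 0.000954, 0.0243, 0.0417 and 0.0284). Hspb1, the small heat shock protein Hsp27, which injured neurons also make, rose by 0.95 ± 0.21 at day 2 (adjusted p = 0.00382) and by 0.83 ± 0.20 at day 60 (adjusted p = 0.00423), and Anxa2 by 0.66 ± 0.21 and 0.78 ± 0.21 at days 21 and 60 (adjusted p = 0.0322 and 0.0115).

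Lgals3, the galectin of activated microglia and macrophages, rose at day 2 by 1.68 ± 0.47 (adjusted p = 0.0213), and by 1.18 ± 0.36 without Spi-2 replicate 4 (adjusted p = 0.0412), with Spi-2 values from 6.958 to 11.0015 against 6.634 to 6.943 in Control. It was near Control later (0.20 ± 0.49, 0.43 ± 0.45 and -0.10 ± 0.45, none called). Markers of microglia and macrophages also had higher group means than Control at each day, with overlap at day 21. Whether they varied with Gfap or Lgals3 from animal to animal was not tested. Of 13 such markers 11 were measured, and their mean was 5.59 to 5.79 in Control, and 6.16 to 7.20, 5.85 to 6.68, 5.59 to 7.07 and 5.87 to 7.08 at days 2, 7, 21 and 60. Of the 11, 4, 1, 2 and 3 were called at the 4 days, all higher, or 36.4%, 9.09%, 18.2% and 27.3% beside 8.87%, 2.59%, 16.6% and 17.1% of all probe sets, with Aif1, C1qc, Cd68 and Csf1r at day 2. Many of these markers were dim: 5 of the 11 had a mean over all arrays above 6.10, the highest array median, and 2 had such a mean in Control. The part of these cells in the member values was not tested.

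Markers of other neighbouring cells had lower calls or none. The 10 measured oligodendrocyte markers of 12 had a mean of 7.54 to 8.19 in Control, then 7.38 to 7.85, 7.17 to 8.07, 7.09 to 7.74 and 7.33 to 8.08 at the 4 days, and the calls were 2, 1, 5 and 2 of 14 probe sets, all lower (14.3%, 7.14%, 35.7% and 14.3%, beside 8.87%, 2.59%, 16.6% and 17.1% of all probe sets). The 5 measured interneuron markers of 6 had 6.31 to 7.91 in Control, then 5.90 to 6.86, 5.81 to 7.05, 5.50 to 6.40 and 5.75 to 6.55, with 2, 0, 3 and 3 of 6 probe sets called lower (33.3%, 0%, 50% and 50%). Endothelium was measured by only 3 of 10 markers, at a mean of 5.57 to 5.94 in all libraries but Spi-2 replicate 4, where it was 6.76. The part of these cells in the changes of Slc1a3 and S100b was not tested.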

How the data were processed

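Gene expression was measured on 31 Affymetrix Rat Genome arrays, 1 per animal. Per the study's methods the authors discarded probe sets outside the Ensembl annotation, corrected the background, applied quantile normalization to the probe intensities, summarised them by RMA (named without a version in the submitters' processing notes), repeated both steps on the summaries and deposited log2 values of 12919 probe sets. No scanner file was used here. The number of arrays limits the precision.

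Everything else was computed from these deposited log2 values. Group means were estimated in a single limma fit (version 3.58.1, R 4.3.3) over the 31 arrays, with empirical Bayes variances and no covariate. After leaving out 6 control sets, p-values were adjusted by Benjamini-Hochberg over 12913 probe sets, contrasts (two-sided) called at 0.05 and F-tests at 0.02. Of these sets 11880 carry 1 symbol, 320 several and 713 none. Genes named are all member probe sets, in each list the 4 probe sets with the smallest F-test p, and the 5 most alike probe sets of Gfap, Vim and Slc1a2. A marker list's level is the mean over its genes, each by its brightest probe set. The members and lists were chosen with earlier results of these data known. On simulated data for the late minus Control contrast (12913 probe sets) the fit found 86% of rises of 1 log2 unit, 98% of falls of 1 and 56% of rises of 0.5. The simulated noise was independent between probe sets, unlike the shared deviations given above, so these shares need not hold for the real arrays. Alternatives covered the normalization, array weights, variance model, samples, a filter on dim probe sets, a 3′ covariate, the replicate number as a block, and each array left out. Permutations used Python 3.11.15 and numpy 2.4.6.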

Additional observations from a re-analysis of the deposited data

Results flagged for a closer look

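Single animals lay far from the rest of their group, by Dixon's gap test, in 3 of the 50 combinations of a member probe set and a group, and chance flags about 1 in 20. Vim was 12.44 in Spi-2 replicate 4, with the next animal at 8.91, in the library with the high fibroblast markers. Slc1a2 was 6.01 in Spi-7 replicate 5, with the next at 5.32. That array has 1 of the 4 narrowest spreads of values. The bright Slc1a3 probe set was 7.31 in Control replicate 4, with the next at 8.62, and that animal was also the lowest control for the 4 other bright probe sets.

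The late change differed from the early one, by the contrast of the means itself, for 3 members. Vim differed by -1.40 (log2, late minus early), S100b by 0.43 and the bright probe set of Slc1a3 by -0.56. The late arrays come from another study than the early ones, so that phase and study cannot be told apart. The Slc1a3 call was lost in 14 of 39 alternatives, the other 2 in none.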

How the results depend on the processing

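Of the called member changes, Gfap at day 2, Gfap in the mean of days 2 and 7, and Vim and S100b in late minus early passed in each of the 39 alternatives. The counts in this section stand without the share of all probe sets called under the same setting, which can change too. They are therefore no result about the members as a group. Array weights gave 3, 1, 3, 2 and 3 called members for days 2, 7, 21 and 60 and the mean of days 2 and 7, with Gja1, S100b or Slc1a3 added. The 3′ covariate left 0 at day 60 and 0 for the late mean (Gfap 1.15 ± 0.38, adjusted p = 0.0525), and it gave 1 for other astrocyte genes at day 60, and 3 and 0 for reactive glia genes at days 2 and 60. A further quantile normalization gave 1 at day 21 and 1 for the late mean, with Slc1a3 lost in both, and 2 for reactive glia genes at day 7. It also moved the share of higher calls over all probe sets at day 21 (35.7% before, 52.1% after) and day 60 (42.1% before, 55.1% after). With only the groups compared the counts were 1 at day 7 and 0 at day 21. Without Spi-21 replicates 1 to 3 they were 2 at day 2 (S100b added), 0 at day 21 and 1 for the late mean, and the filter on dim probe sets gave 2 at day 2 (S100b added). Without Spi-2 replicate 4, chosen after seeing the data, the count for reactive glia genes was 9 at day 60. Gfap alone in place of the pair gave 1.5484, 1.6776 and 1.9769 per animal at days 7, 21 and 60. In that contrast only the bright homeostatic genes, also chosen after seeing the data, and the other settings moved no group mean by more than its SD. Leaving out Glul could not change it, since no value of Glul is used. The causes were not tested.

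Leaving out each array in turn gave 1 to 2 called members at day 2, 0 to 1 at day 7, 0 to 2 at day 21, 1 to 2 at day 60 and 1 to 3 for the late mean. The arrays that ended a day 21 call of Gfap or Slc1a3 were Control replicates 1 to 4 and Spi-21 replicates 1, 2, 3 and 8, 1 at a time. The Vim F-test was lost without Spi-2 replicate 5 (adjusted p = 0.0290).

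Replicate numbers do not pair the samples: the deviations of same-numbered arrays had a median r of -0.041 over 51 pairs, 11 of them over 0.1. With the replicate number as a block, 0 members were called in the F-test over Control, Spi-2 and Spi-7 (Gfap, adjusted p = 0.0211), the Vim F-test was lost (adjusted p = 0.0265), Slc1a2 at day 21 was -0.0081 and the dim Slc1a3 probe set at day 60 was 0.0289.

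Signs turned only for changes that no alternative called. With the 3′ covariate Nes was -0.0182 and -0.1104 at days 2 and 60, Aqp4 0.0202 and Slc1a2 0.0225 at day 7, and the dim Gja1 probe set -0.0329 at day 2. That probe set was -0.014 and S100b at day 21 was 0.0499 after further quantile normalization. Without Spi-21 replicates 1 to 3 Nes, Aqp4 and S100b were -0.1058, 0.0018 and 0.0528 at day 21. With each array left out Vim ranged from -0.5918 to 0.0569 at day 7, Nes from -0.0431 to 0.036 at day 7 and -0.0086 to 0.1184 at day 21, Slc1a2 from -0.2421 to 0.0159, -0.0579 to 0.1683 and -0.0485 to 0.1777 at days 7, 21 and 60, the dim Slc1a3 probe set from -0.073 to 0.0383 and -0.0629 to 0.0484 at days 7 and 60, and the dim Gja1 probe set from -0.0152 to 0.0389 at day 2. Signal near the array median limits what these dim probe sets can show.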
